A study of Mus musculus with 30 samples.

Results

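The expression of 10 genes that glucocorticoids induce in many cell types was examined in peripheral blood mononuclear cells (PBMC) of mice. The genes are Tsc22d3, Fkbp5, Per1, Zbtb16, Klf9, Errfi1, Cebpd, Sgk1, Ddit4 and Dusp1. They were chosen by name, and every non-control probe carrying one of these names was taken, which gave 11 of the 55681 probes of the array. Each of the 10 genes had 1 probe that was kept, out of 25275 genes or unnamed transcripts kept in all. Per1 had a further probe, which was well above background on 1 of 30 arrays and was not kept.

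The study followed blood cells during acute lung injury. All animals were female C57BL/6 mice aged 6 weeks. All were anaesthetised with xylazine and ketamine, so the controls carry that exposure too. The injured groups were given oleic acid (OA), which damages the lung when it enters a vein, at 1.2 µl per g of body weight into the tail vein. The control groups received physiological serum by the same route, and the injected volume was 200 µl in each case. Blood was taken once per animal at 1, 1.5, 3, 4, 18 or 24 h, and PBMC were separated on Ficoll. The serum groups held 3, 3, 2, 1, 2 and 2 arrays at these times and the OA groups 3, 3, 3, 2, 3 and 3 arrays. There were 30 arrays in all, each taken as 1 mouse, so the p-values measure the spread between these animals. The test at 4 h takes the spread of its single serum array from the remaining groups.

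Glucocorticoids are steroid hormones of the adrenal cortex that rise in the blood under stress and follow the time of day. In the cell they bind the glucocorticoid receptor (Nr3c1), which leaves its complex with HSP90 and FKBP proteins, enters the nucleus and binds DNA as a dimer at palindromic response elements, or acts through other factors. In blood the hormones are known both to change transcription within leukocytes and to move lymphocytes and monocytes out of or into the circulation.

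The promoters are shown first, because they show which of these genes carry letters of the receptor's element, or of elements for other signals, close to a transcript start. Of the 10 genes, 8 had promoter sequence in the RefSeq table of the GRCm38.p6 build, in 17 windows. Zbtb16 and Cebpd had none there. The 250 bases before each start were searched on both strands for AGAACA, which is 1 arm of the receptor's palindrome, and for the full palindrome, in which AGAACA and TGTTCT stand 3 bases apart. The E-box CACGTG, bound by the clock factors among others, and the cAMP response element TGACGTCA were searched as well. The full palindrome contains the single arm, so each match to it is also a match to AGAACA. In the lines that follow, capitals mark every match within a stretch of 54 bases, written 5′ to 3′ on the gene's strand.

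Sgk1, chr10:21993677-21993730, plus strand: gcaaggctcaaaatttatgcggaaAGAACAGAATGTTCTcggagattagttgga
Tsc22d3, chrX:140600678-140600731, minus strand: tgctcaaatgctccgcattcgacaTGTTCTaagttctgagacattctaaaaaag
Fkbp5, chr17:28486289-28486342, minus strand: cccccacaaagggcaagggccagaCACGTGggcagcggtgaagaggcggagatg
Per1, chr11:69098759-69098812, plus strand: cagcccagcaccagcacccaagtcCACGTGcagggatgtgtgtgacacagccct
Dusp1, chr17:26508586-26508639, minus strand: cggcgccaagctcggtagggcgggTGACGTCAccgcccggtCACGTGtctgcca
Errfi1, chr4:150854995-150855048, plus strand: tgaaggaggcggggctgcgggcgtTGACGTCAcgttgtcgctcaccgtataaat

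The complete palindrome was found in 1 of the 17 windows, before the fifth of 6 Sgk1 starts. It lay 189 to 175 bases before that start and 965 to 951 bases before the sixth. Over all genes, 3 of 32851 windows (0.00913%) held it, the other two being those of Acnat2 and Gm35041. The single arm AGAACA was present in 4 of the 17 windows, those of Sgk1 and Tsc22d3, against 16.1% of all windows. The E-box was present in 4 of the 17 (Fkbp5, Per1, Sgk1 and Dusp1), against 6.02% of all windows. The cAMP response element was present in 2 of the 17 (Errfi1 and Dusp1), against 1.55%. None of these letters stood in the single windows of Klf9 and Ddit4. A match describes the letters of a window and not a bound site, and distal elements lie outside these windows.

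Levels are log2 values of the processed signal relative to the 75th percentile of the same array, so a value of 0 is a signal equal to that percentile. The levels of different probes are not comparable with each other, and each gene is compared only with itself. Tsc22d3, Fkbp5, Per1, Cebpd, Sgk1, Ddit4 and Dusp1 were well above background on all 30 arrays. Zbtb16 was so on 29, Errfi1 on 28 and Klf9 on 27 arrays. Over the 30 arrays the level of Ddit4 spanned 4.68 log2 units and that of Per1 4.58, while Sgk1 spanned 2.78 and Fkbp5 2.85. The probes map, in the mm9 coordinates of the array files, to chrX:137074094-137074153 (Tsc22d3), chr17:28536060-28536119 (Fkbp5), chr11:68923364-68923423 (Per1), chr9:48462419-48462478 (Zbtb16) and chr19:23240410-23240469 (Klf9). The others lie at chr4:150242886-150242945 (Errfi1), chr16:15888459-15888518 (Cebpd), chr10:21719507-21719566 (Sgk1), chr10:59412486-59412545 (Ddit4) and chr17:26642526-26642536 (Dusp1). Whether a probe lies in a coding exon or an untranslated region was not analysed here, because no annotation of mm9 was used.

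**Figure D1:**
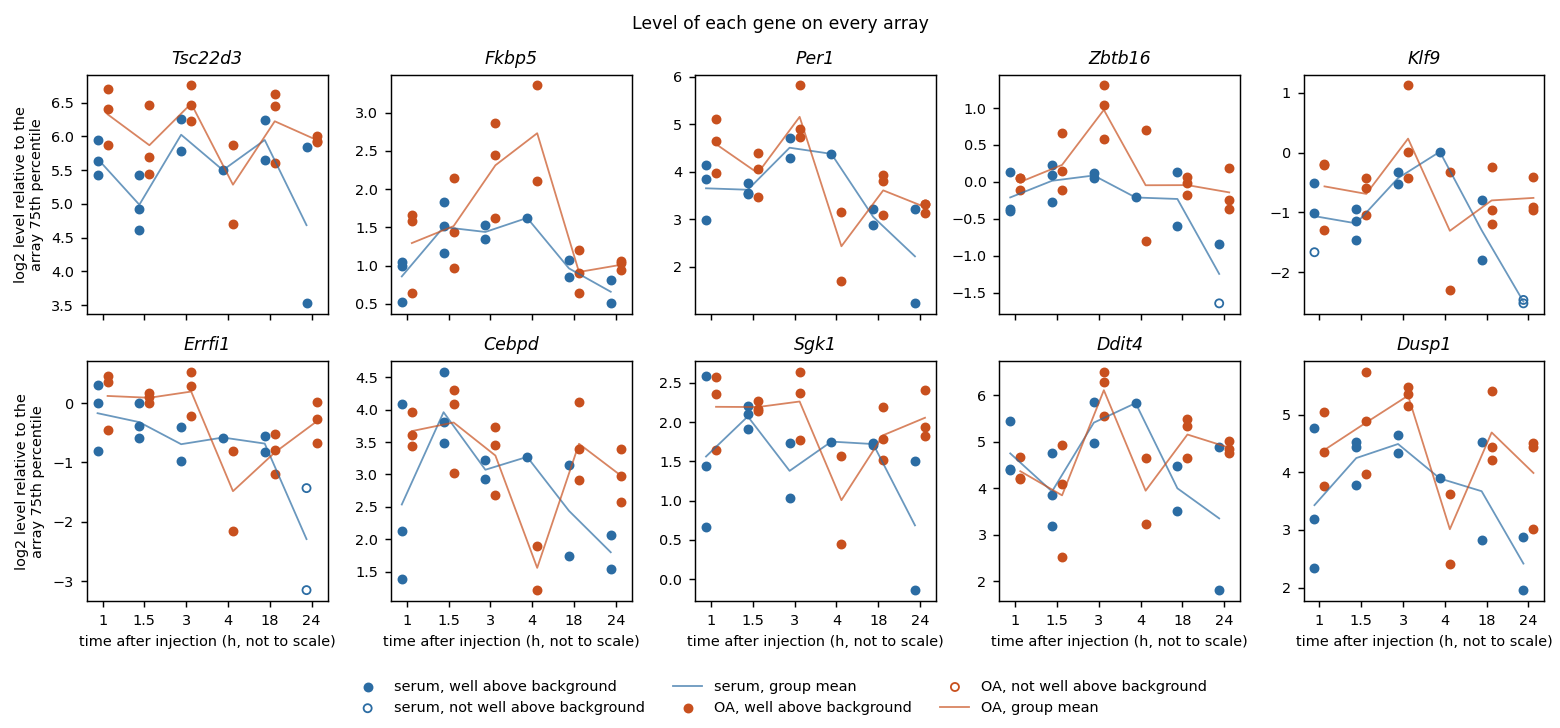
Level of each of the 10 genes on every array (vertical axis: log2 level relative to the array's 75th percentile, scaled per gene; horizontal axis: hours after injection, not to scale). Points are single arrays, lines join group means, and open points are arrays on which the probe was not well above background. Fkbp5 reaches its highest values, 3.36 and 2.86, in OA arrays at 4 and 3 h, and 1 serum array at 24 h lies far below its partner for Tsc22d3, Per1, Errfi1, Sgk1 and Ddit4.

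The arrays were not equal in quality. They were spread over 5 slides, scanned on 2 days, and the 5 arrays of slide 5 were all OA and made up 1 of those days. Pairwise correlations ran from 0.74 to 0.984, and the share of probes well above background from 34.7% to 65%. The 3 arrays with the lowest median correlation to the others were replicate 1 of serum 24 h (0.814), replicate 2 of OA 4 h (0.851) and replicate 3 of serum 1.5 h (0.896). The serum 24 h and OA 4 h arrays among them also had the highest mean signal of 16251 probes for long intergenic RNAs, at -2.93 and -3.16 against the median of probes detected on all arrays. The fits were repeated without these arrays and with the intergenic signal as a covariate. For 4 and 24 h the calls that ended and the directions that turned are stated, without the value in each case. Markers of the PBMC types (B, T and natural killer cells and monocytes) were above the 75th percentile in every group, with group means of 3.94 to 5.77 for B cells and 2.04 to 4.31 for monocytes. So were those of cells outside this fraction, with group means of 4.8 to 6.76 for neutrophils, 4.83 to 7.52 for platelets and 6.79 to 8.82 for erythroid cells. In such bulk samples fewer cells of a type and less RNA per cell cannot be told apart.

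The clearest contrast between OA and serum lay at 24 h. All 10 genes had a higher mean level after OA than after serum, and for 4 of them the difference passed the test (limma, Benjamini-Hochberg adjusted p over all genes below 0.05). These were Errfi1, Klf9, Zbtb16 and Sgk1. The share of all genes called at 24 h was 29.9%, so 4 of 10 stands near the background. The median difference of the 10 genes was 1.32, against -0.04 over all genes tested.

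Errfi1, a feedback inhibitor of the epidermal growth factor receptor family, had levels of -3.15 and -1.43 on the serum arrays at 24 h and of -0.67, -0.27 and 0.02 on the OA arrays. Every OA array was above both serum arrays. On neither of the 2 serum arrays was the probe well above background. The difference was 1.98 (SE 0.47, adjusted p = 0.0159 by limma), a fold of 3.95 between group means on the processed signals. With normexp background correction, which adds an offset of 50 to every signal, the difference was 0.38 and not called (adjusted p = 0.163), and without serum 24 h replicate 1 it was 1.12 (adjusted p = 0.503). Klf9, a Krüppel-like repressor that takes part in cell differentiation, had -2.46 and -2.52 on the serum arrays and -0.97, -0.91 and -0.40 on the OA arrays. Here the serum arrays lay close together, and none of the groups' values overlapped. Neither serum array was well above background for this probe. The difference of Klf9 was 1.74 (SE 0.53, adjusted p = 0.0267 by limma), a fold of 3.33 between group means on the processed signals. With normexp correction it was 0.21 on the log2 scale and not called (adjusted p = 0.526). A bound was sought by setting the OA mean against the lowest signal well above background on each serum array. The probe's own signal was used where that was higher. For Errfi1 and Klf9 this gave the folds between group means, so these are estimates and not lower limits.

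Zbtb16, which encodes the zinc finger factor PLZF, had -1.65 and -0.85 on the serum arrays at 24 h and -0.37, 0.18 and -0.24 on the OA arrays. The groups did not overlap, and the difference was 1.11 (SE 0.39, adjusted p = 0.0403), or 0.42 and not called (adjusted p = 0.122) with normexp correction. Sgk1, a kinase that regulates ion channels and transporters, had -0.14 and 1.51 on the serum arrays and 1.82, 2.41 and 1.94 on the OA arrays. The groups were separate, but the serum arrays lay farther from each other than the higher of them lay from the OA arrays. Its difference was 1.37 (SE 0.50, adjusted p = 0.0454 by limma). This call also rested on arrays outside the comparison. Without serum 1 h replicate 2 or without OA 1.5 h replicate 3 the difference stayed at 1.37. It was then not called (adjusted p = 0.0529 and 0.0526).

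The other 6 genes did not pass the test at 24 h. Tsc22d3, which encodes the anti-inflammatory leucine zipper protein GILZ, had 3.52 and 5.84 on the serum arrays and 5.93, 6.00 and 5.91 on the OA arrays. The higher serum array lay just below the OA arrays and the other far below them, and the difference was 1.26 (SE 0.52, adjusted p = 0.0645). Dusp1, a phosphatase that switches off MAP kinases, had 1.96 and 2.88 after serum and 3.01, 4.51 and 4.45 after OA, a difference of 1.57 (adjusted p = 0.0759). The differences were 1.52 for Ddit4, an inhibitor of the mTOR pathway (adjusted p = 0.105), and 1.18 for Cebpd, a transcription factor of myeloid cells (adjusted p = 0.133). They were 1.04 for Per1, a negative arm of the circadian clock that the receptor also induces (adjusted p = 0.126), and 0.35 for Fkbp5, an FKBP protein that lowers the receptor's affinity for its hormone (adjusted p = 0.522). Counted by separation, every OA array was above every serum array for 8 of the 10 genes, Per1 and Ddit4 being the exceptions, against 25.7% of all genes.

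These 24 h calls rested on few arrays and on the background correction. Of the alternatives that follow, the count over all genes is given only for the intergenic covariate. The others show only whether the calls held. With normexp, 5 genes were called (Tsc22d3, Cebpd, Sgk1, Ddit4 and Dusp1), of which Sgk1 alone is among the 4 above, and all 10 differences stayed above 0. None of the 10 genes passed without serum 24 h replicate 1, the lower of the pair for all but Klf9 and Fkbp5, and the median difference then was 0.63. Without the other serum array the differences were larger for all but Klf9 and Fkbp5, and reached 3.06 for Ddit4. None passed without OA 24 h replicate 1, without the arrays of slide 5, with the slide as a fixed block or with the intergenic signal as a covariate. Under that last model 2 of all genes were called, and 4 of the 10 genes turned below 0, Fkbp5 to -0.49, Per1 to -0.47, Tsc22d3 to -0.11 and Sgk1 to -0.09 (each with adjusted p = 0.997). Without serum 24 h replicate 1, Ddit4 turned to -0.02 (adjusted p = 0.995). Both serum arrays at 24 h were on slide 1, which held no OA array of that time, so no within-slide value exists at 24 h. Of the monocyte markers 5 of 5 were higher after OA, 2 of them called (Csf1r and Ccr2). Their mean level was 1.31 to 2.77 on the serum arrays and 3.51 to 4.02 on the OA arrays. Markers of the other mononuclear types were higher too, in 5 of 5 genes for B cells (1 called), 4 of 4 for dendritic cells (1 called), 5 of 5 for natural killer cells and 5 of 6 for T cells. The part of these markers in the members' differences was not tested.

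**Figure D2:**
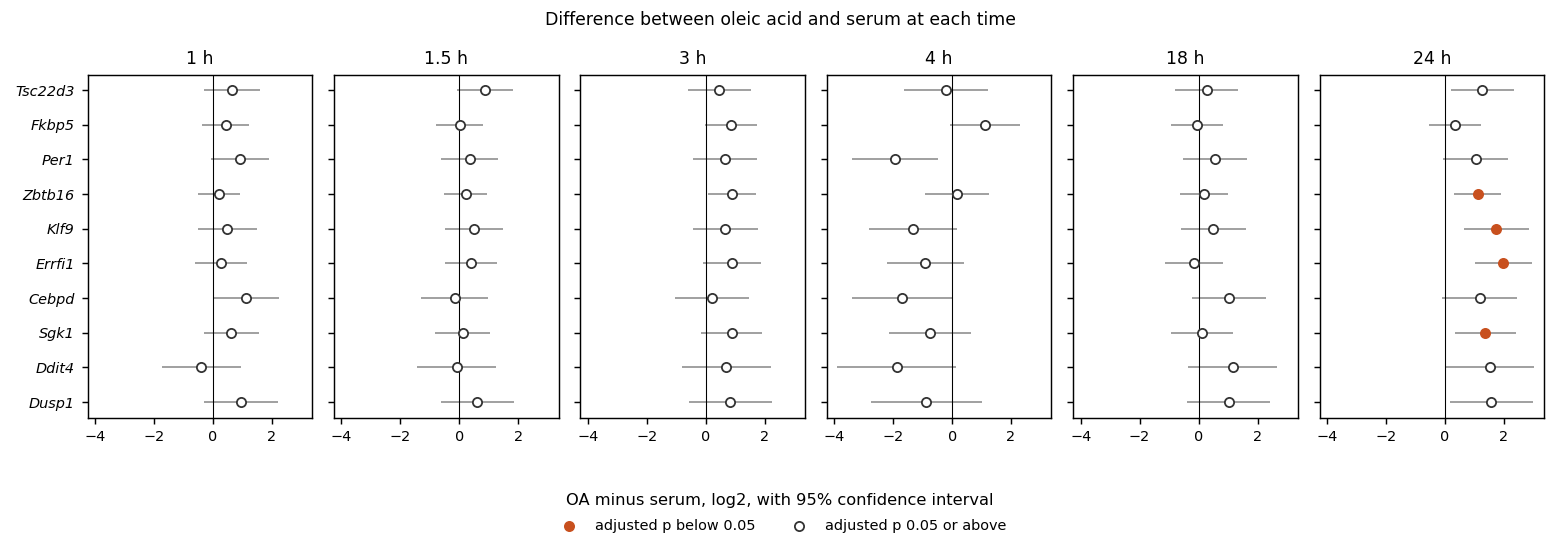
Difference between OA and serum for each gene (rows) at each time (panels), on the log2 scale with 95% confidence intervals from limma. Filled points have an adjusted p below 0.05 and occur only at 24 h, for Zbtb16, Klf9, Errfi1 and Sgk1, while at 4 h 8 of 10 points lie below 0.

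In the first 3 h most of the genes were again higher after OA, with smaller median differences than at 24 h, and none passed the test by limma. At 1 h, 9 of 10 were higher after OA, with a median difference of 0.57 against -0.09 over all genes. The exception was Ddit4, at -0.38. By limma 0 of the 10 and 0% of all genes were called, and at an unadjusted p below 0.05 the counts were 0 of the 10 and 5.39% of all genes. The differences closest to the threshold were those of Cebpd, at 1.13 (adjusted p = 0.825), and Per1, at 0.93 (adjusted p = 0.825). At 1.5 h, 8 of 10 were higher, with a median of 0.28 against 0.05. Again none of the 10 and 0% of all genes were called, and 0 of the 10 and 9.94% of all genes had an unadjusted p below 0.05. Tsc22d3 was the one gene whose OA arrays at 1.5 h, at 5.45, 5.69 and 6.47, all lay above its serum arrays, at 4.92, 5.42 and 4.62. Such separation held for 16.6% of all genes.

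At 3 h all 10 genes were higher after OA, with a median difference of 0.77 against 0.09 over all genes. By limma 0 of the 10 and 0% of all genes were called, while Zbtb16 alone and 7.73% of all genes had an unadjusted p below 0.05. For 6 genes (Fkbp5, Per1, Zbtb16, Errfi1, Sgk1 and Dusp1) every OA array was above both serum arrays, against 16.4% of all genes. Zbtb16 had 0.13 and 0.05 after serum and 0.57, 1.04 and 1.31 after OA, which gave its highest group mean of the series. Its difference was 0.89 (SE 0.39, adjusted p = 0.631). Fkbp5 had 1.53 and 1.35 after serum and 1.63, 2.45 and 2.86 after OA. The OA arrays lay above the serum arrays, one of them by little, and the difference was 0.87 (SE 0.42, adjusted p = 0.647). Sgk1 had 1.73 and 1.03 after serum and 2.38, 1.78 and 2.64 after OA, a difference of 0.88 (adjusted p = 0.673). Monocyte markers were again higher after OA, in 5 of 5 genes and with array means of 3.66 to 4.30 against 3.04 to 3.25, and platelet markers in 5 of 5. Their part was not tested. On slide 1, which held both treatments at 3 h, 1 OA array minus 1 serum array gave 1.1 for Fkbp5, 0.62 for Per1, 0.76 for Errfi1 and 1.14 for Dusp1.

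At 4 h the order turned for most genes, on 2 OA arrays and 1 serum array. The level was lower after OA for 8 of 10 genes, with a median difference of -0.89 against -0.16 over all genes. The calls by limma were 0 of the 10 and 0% of all genes, while 2 of the 10, Per1 and Cebpd, and 10.9% of all genes had an unadjusted p below 0.05. Per1 had 4.38 on the serum array and 3.15 and 1.71 on the OA arrays, a difference of -1.94 (SE 0.71, adjusted p = 0.446). Cebpd had 3.27 on the serum array and 1.91 and 1.22 on the OA arrays, a difference of -1.71 (SE 0.82, adjusted p = 0.456). For 7 genes both OA arrays lay below the serum array, which held for 39.8% of all genes. Much of this rested on OA 4 h replicate 2. Without it the median of the 10 was -0.25, 7 of 10 genes were lower, Per1 differed by -1.22, Klf9 by -0.33 and Tsc22d3 by 0.37, and none was called (each with adjusted p = 1.0). With the intergenic signal as a covariate the median was -0.03 and 5 of 10 were lower, Tsc22d3 (0.79), Sgk1 (0.32) and Errfi1 (0.01) having turned above 0.

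Fkbp5 went the other way at 4 h. It had 1.62 on the serum array and 3.36 and 2.11 on the OA arrays, and was the one gene of the 10 with both OA arrays above the serum array, a separation found for 31.4% of all genes. The difference was 1.11 (SE 0.57, adjusted p = 0.468), and 1.73 both without OA 4 h replicate 2 and with the intergenic covariate. On slide 3, which held 1 array of each treatment at 4 h, OA minus serum was 0.48 for Fkbp5, -2.66 for Per1 and -2.31 for Klf9. The OA array of that pair is replicate 2, the array with the raised intergenic signal. Monocyte and neutrophil markers were lower on the OA arrays at 4 h in 5 of 5 and 6 of 6 genes, the former with array means of 1.65 and 3.22 against 4.31. Their part was not tested.

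At 18 h the median difference was 0.39 against -0.07 over all genes, 8 of 10 genes were higher after OA, and none of the 10 and 0% of all genes were called. At an unadjusted p below 0.05 the counts were 0 of the 10 and 0.985% of all genes. Ddit4 had 3.52 and 4.48 after serum and 5.49, 5.33 and 4.65 after OA. It was the one gene whose groups were separate at 18 h, against 2.67% of all genes above, and its difference was 1.16 (SE 0.73, adjusted p = 1). Cebpd and Dusp1 differed by 1.03 and 1.02, and Fkbp5 by -0.05 (95% interval -0.93 to 0.83).

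Averaged over the 6 times, all 10 genes were higher after OA, by 0.17 (Ddit4) to 0.69 (Dusp1), with a median of 0.42 against -0.06 over all genes. By limma none of the 10 and 0.00396% of all genes passed, while 5 of the 10 and 14.6% of all genes had an unadjusted p below 0.05. The 4 h groups weighed on this mean. With both left out, an alternative chosen after the data were seen, 7 of the 10 genes passed, together with 4978 of all genes. Those 7 were Tsc22d3, Per1, Zbtb16, Klf9, Errfi1, Sgk1 and Dusp1, with mean differences over 5 times of 0.52 (Zbtb16, adjusted p = 0.0352) to 1.00 (Dusp1, adjusted p = 0.0370). That count was 0 when, in addition, serum 24 h replicate 1 or the 24 h groups were left out, the slide was a fixed block, or the intergenic signal was a covariate. The mean shares its arrays with the differences at single times, so these are not independent.

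The difference between OA and serum itself was then compared between times. The F test that asks whether the OA effect differs between times called 0 of the 10 genes by limma, against 0.00792% of all genes, while 2 of the 10, Per1 and Errfi1, and 16.7% of all genes had an unadjusted p below 0.05. The lowest adjusted p was that of Errfi1 (0.25), followed by Per1 (0.291). Leaving out serum 24 h replicate 2 left 1 serum array at 24 h. It raised the 24 h difference of Per1 to 2.0 and that of Ddit4 to 3.1. In the contrast of the effect at 18 and 24 h with that at the 4 earlier times, none of the 10 and 0% of all genes passed, while 3 of the 10, Klf9, Cebpd and Ddit4, and 14.4% of all genes had an unadjusted p below 0.05. Ddit4 had the largest value of the 10, 1.75 (SE 0.64, adjusted p = 0.265), and Fkbp5 was the one gene below 0, at -0.45 (95% interval -1.23 to 0.32).

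Levels were also compared between times within each treatment. In serum animals all 10 genes were lower on the next day (18 and 24 h) than in the first hours (1 to 4 h), with a median difference of -1.01 against 0.00 over all genes. By limma none of the 10 passed, against 0.154% of all genes, although 7 of the 10 and 10.0% of all genes had an unadjusted p below 0.05. Without serum 24 h replicate 1 the median was -0.62, with Ddit4 at -0.53, Sgk1 at -0.08 and Tsc22d3 turned to 0.35. After OA the pattern was mixed, with 6 of 10 lower and a median of -0.13. The test called 0 of the 10 there by limma, against 0.162% of all genes, and at an unadjusted p below 0.05 the counts were 1 of the 10 (Fkbp5) and 15.3% of all genes. In limma's F test for any difference between times none of the 10 passed, against 0.558% of all genes, while 8 of the 10 and 12.2% of all genes had an unadjusted p below 0.05. Neutrophil markers were lower on the next day in 6 of 6 genes in serum animals and in 5 of 6 in OA animals, and the monocyte marker Cd14 was called in serum animals (-2.81, adjusted p = 0.0223). Their part was not tested. These comparisons use the same arrays as those between OA and serum.

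Per1 was the member nearest to the threshold in that F test (adjusted p = 0.0525). In serum animals it had 2.98, 3.84 and 4.13 at 1 h, then 3.53, 3.56 and 3.77 (1.5 h), 4.72 and 4.29 (3 h) and 4.38 (4 h). The next-day values were 2.88 and 3.23 at 18 h, then 1.23 and 3.21 at 24 h. All 4 next-day values lay below the serum values of 1.5 to 4 h, and 1 of the 1 h arrays fell among them. The next-day difference in serum animals was -1.40 (SE 0.36, adjusted p = 0.138), and in OA animals -0.60 (SE 0.29, adjusted p = 0.333). After OA the highest group mean of Per1 was that of 3 h (5.15), with arrays at 4.74, 4.91 and 5.82, and the 1 h arrays, up to 5.10, overlapped them. Without the 4 h groups the OA value became -1.14 (adjusted p = 0.148). Within each of the 5 slides the mean Per1 level of the next-day arrays was lower than that of the first-hours arrays, by 0.61 to 1.84 on the log2 scale. These means pool both treatments, which were not balanced within slides, so treatment is mixed into them. The largest fall was on slide 1, whose next-day arrays were both serum 24 h, and slide 5 held OA arrays only.

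Fkbp5 had the lowest p of the 10 for the next-day difference after OA. Its OA arrays had 0.64, 1.59 and 1.66 at 1 h, then 1.44, 2.14 and 0.97 (1.5 h), 1.63, 2.45 and 2.86 (3 h) and 3.36 and 2.11 (4 h). On the next day they had 1.2, 0.64 and 0.90 at 18 h, then 1.03, 1.06 and 0.94 at 24 h. In order of the group mean they ran 4 h (2.73), 3 h (2.31), 1.5 h (1.52), 1 h (1.29), 24 h (1.01) and 18 h (0.92). Each group overlapped its neighbours in this order, while every array of 3 and 4 h lay above every next-day array. The next-day minus first-hours difference was -1.0 (SE 0.24, adjusted p = 0.0964), and in serum animals -0.55 (SE 0.29, adjusted p = 0.532). In serum animals the order of the means was 4 h (1.62), 1.5 h (1.5), 3 h (1.44), 18 h (0.96), 1 h (0.86) and 24 h (0.66), with 1 h below 18 h. With both treatments pooled, and not balanced, all 5 slides had a lower mean on the next day, by 0.58 to 0.93 on the log2 scale. Without the 4 h groups the OA value was -0.74 (adjusted p = 0.28).

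Within the first hours, levels at 3 and 4 h were compared with those at 1 and 1.5 h over both injections. By limma 0 of the 10 passed, against 0.293% of all genes, while 4 of the 10 and 12.4% of all genes had an unadjusted p below 0.05. Fkbp5 was higher at 3 and 4 h by 0.73 (SE 0.22, adjusted p = 0.143) and Ddit4 by 1.1 (SE 0.38, adjusted p = 0.191). Ddit4 had 5.84 and 4.98 in serum animals at 3 h and 5.55, 6.50 and 6.28 in OA animals, above its 1.5 h values of 3.86, 4.75 and 3.19 after serum and 4.08, 2.53 and 4.93 after OA. Every 3 h array was above every 1.5 h array. This did not hold for the other times in the contrast. At 1 h, 1 serum array, at 5.44, was above the lower serum array of 3 h. At 4 h the serum array was at 5.83, but the OA arrays, at 4.66 and 3.24, lay among the values of 1 and 1.5 h. Errfi1 and Cebpd had differences below 0, of -0.57 (adjusted p = 0.336) and -0.69 (adjusted p = 0.382). Platelet markers were higher at 3 and 4 h in 5 of 5 genes and B cell markers lower in 5 of 5, with Ms4a1 called (-1.39, adjusted p = 0.0190), and their part was not tested.

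Zbtb16, Klf9 and Errfi1 were also lower on the next day within all 5 slides, although by as little as 0.11, 0.09 and 0.08 on the log2 scale on some of them. Here too the treatments were pooled and not balanced within slides. Cebpd and Dusp1 were lower on 4 slides, Tsc22d3 and Sgk1 on 3 and Ddit4 on 2. Sgk1 had the highest p of the 10 in the F test for time (adjusted p = 0.675), with serum values of 1.92, 2.10 and 2.20 at 1.5 h against 1.74 and 1.71 at 18 h.

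**Figure D3:**
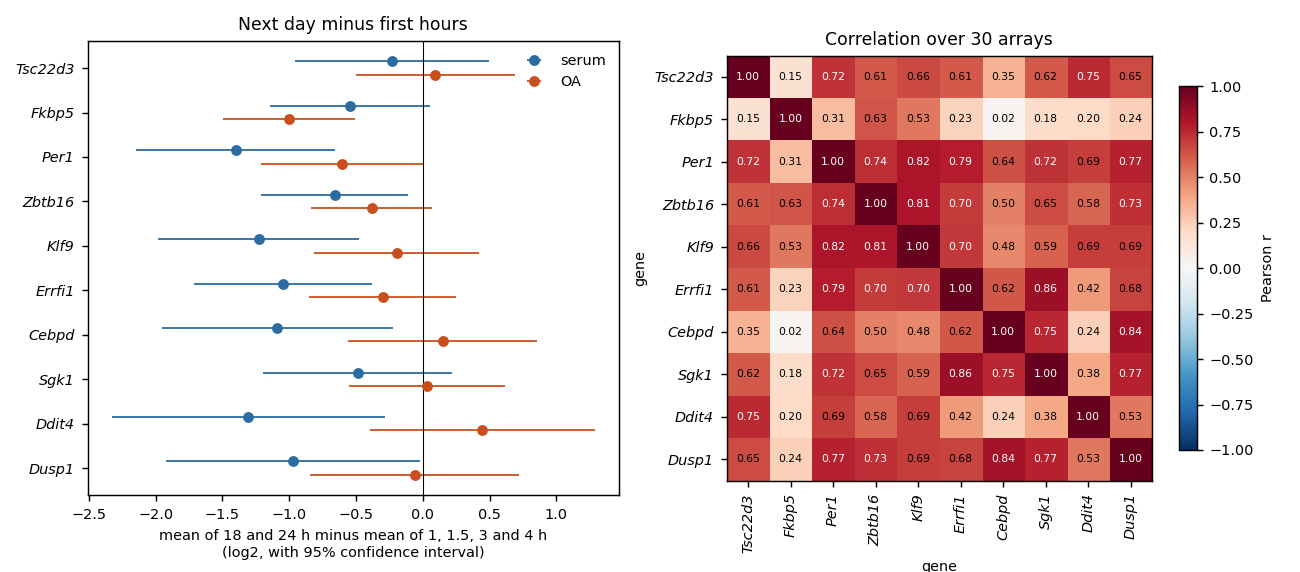
Left, next-day minus first-hours difference of each gene in serum and OA animals (log2, 95% confidence intervals). All 10 serum points lie below 0, and Fkbp5 has the lowest OA point, at -1.0. Right, Pearson r between genes over the 30 arrays, where the row of Fkbp5 holds the lowest values, down to 0.02 with Cebpd.

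Across the 30 arrays most of the genes moved together. Of 45 pairs, 36 had an adjusted p below 0.05 for Pearson's r and 33 for Spearman's rho (permutation tests with 100000 resamples, two-sided, adjusted over the 45). The arrays share treatments, times and slides, so they are not independent draws. The share of correlated pairs over all genes was not computed, so these counts have no background. Among the 36 pairs without Fkbp5 the median r was 0.684. The highest were Errfi1 with Sgk1 (r = 0.858, rho = 0.788, adjusted p = 3.75e-05 and 0.000225) and Cebpd with Dusp1 (r = 0.836, rho = 0.747, adjusted p = 3.75e-05 and 0.000225). Both relations stayed without the 2 arrays farthest from the median of the first gene, at r = 0.693 and 0.782. On the 2 slides with at least 6 arrays they were 0.89 and 0.845 for the former and 0.915 and 0.808 for the latter.

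For 7 of the other 9 genes the lowest r was the one with Fkbp5. Its median r over 9 pairs was 0.233, and 2 of the 9 passed for r and 4 for rho. Those that passed for both were the pairs with Zbtb16 (r = 0.633, rho = 0.641, adjusted p = 0.000504 and 0.000859) and Klf9 (r = 0.528, rho = 0.594, adjusted p = 0.00422 and 0.00211). Without the 2 arrays farthest from its median these were 0.497 and 0.404. They were 0.746 and 0.82 on slide 1 but 0.12 and -0.154 on slide 3, so neither held within both slides. With Cebpd its r was 0.0176 (rho = 0.124, adjusted p = 0.927 and 0.523), and with Tsc22d3 it was 0.155 (rho = 0.148, adjusted p = 0.42 and 0.463).

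The genes also moved with measures of the array and of its cells. Against the intergenic signal of the same array, r ran from -0.842 (Sgk1) to -0.128 (Fkbp5). For 9 of 10 the adjusted p was below 0.05 over the 40 relations computed with array measures. The share of all genes related to these measures was not computed. For Sgk1 (rho = -0.727, adjusted p = 6.67e-05 and 0.0004) r was -0.681 without the 2 farthest arrays, and -0.952 and -0.876 within the 2 larger slides. Against the mean of the monocyte markers, r for Sgk1 was 0.84 (rho = 0.709, adjusted p = 6.67e-05 and 0.0004), and for Fkbp5 it was 0.222 (rho = 0.377, adjusted p = 0.277 and 0.0707). Cebpd followed the neutrophil markers most closely (r = 0.878, rho = 0.927, adjusted p = 6.67e-05 and 0.0004), with 0.897 without the 2 farthest arrays and 0.971 and 0.934 within slides. Ddit4 followed the T cell markers (r = 0.686, rho = 0.622, adjusted p = 0.000154 and 0.00167), with 0.514 without the 2 farthest arrays.

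**Figure D4:**
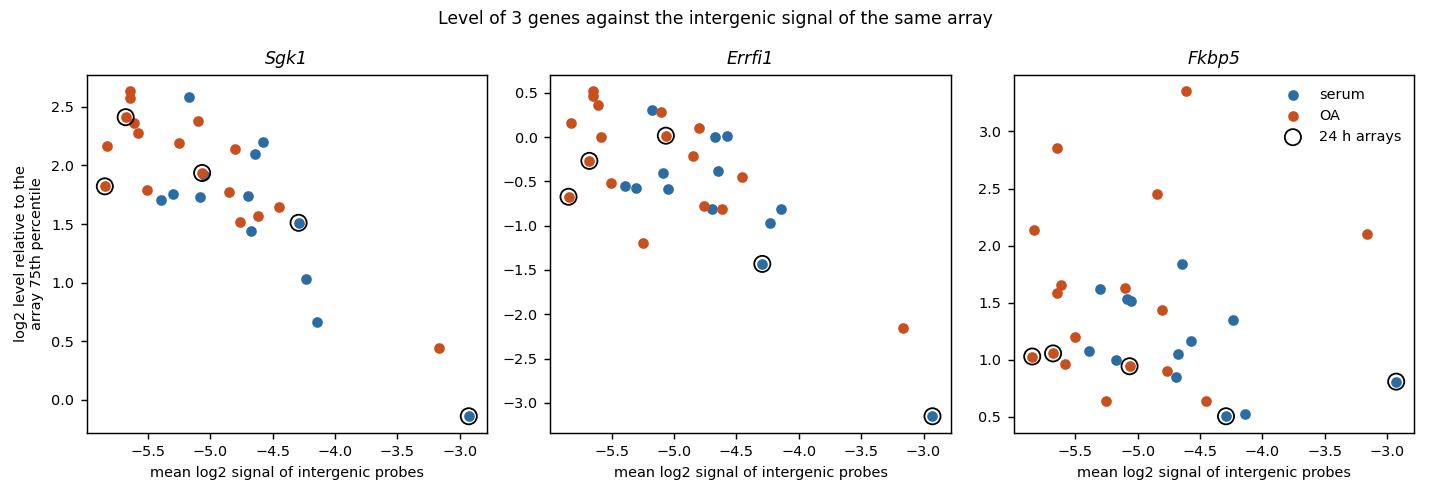
Level of Sgk1, Errfi1 and Fkbp5 on each of 30 arrays (vertical axes, log2 relative to the array's 75th percentile) against the mean log2 signal of probes for long intergenic RNAs on the same array (horizontal axes, relative to probes detected on all arrays). Black rings mark the 24 h arrays. Sgk1 and Errfi1 fall as the intergenic signal rises, with the serum 24 h array at -2.93 at the lower right, while for Fkbp5 r is -0.128 over all arrays and -0.55 once group means are removed.

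For each gene the others on the array with the most similar course were searched over 15905 named genes without missing values, by Pearson's r over the 30 arrays and as a description only. Dusp1 was most like Fos, an immediate early transcription factor (r = 0.925, and 0.914 after group means were removed), and Per1 was most like Nfkbia, the inhibitor of NF-kB (0.921 and 0.924). Tsc22d3 was closest to Cd69, an early activation antigen of lymphocytes (0.911 and 0.932), and Cebpd to Msrb1 (0.969 and 0.966). Sgk1 was closest to Atf1 (0.953 and 0.953), Errfi1 to Mctp2 (0.928 and 0.846), Klf9 to Brap (0.875 and 0.757), Zbtb16 to Ubald2 (0.837 and 0.778) and Ddit4 to Zfp36l2 (0.837 and 0.824). Fkbp5 had the weakest closest match, Sytl3 (0.736 and 0.767).

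The receptor and other genes of the pathway were set beside the 10. Nr3c1, the receptor itself, had 1.64 to 3.21 on the serum arrays at 24 h and 3.67 to 3.75 on the OA arrays, and was the 1 of 10 receptor and co-factor genes called there (difference 1.30, SE 0.40, adjusted p = 0.0276). At the other 5 times its difference lay between -1.03 (4 h) and 0.45 (1.5 h) and was not called. Hsd11b1, which regenerates active hormone in the cell, had a difference of 0.73 at 24 h (adjusted p = 0.0847). Of 20 further genes known to be induced by glucocorticoids, 18 were kept, and 2 were higher at 24 h by the test. These were Bcl6, a transcriptional repressor (1.54, adjusted p = 0.0199), and Zfp36, which speeds the decay of cytokine mRNAs (2.03, adjusted p = 0.0416, with 1 of 2 serum arrays well above background).

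Il1r2, the decoy receptor for interleukin 1 that glucocorticoids induce, changed with time (F test, adjusted p = 0.0190). Its group means were 1.53 to 3.78 in serum animals at 1 to 4 h and -0.05 and 0.29 at 18 and 24 h. In OA animals they were 2.65, 3.35, 3.57 and 1.30 over the first hours, then 1.22 and -0.18 on the next day. Its next-day differences were -2.68 (SE 0.62, adjusted p = 0.0932) in serum and -2.20 (SE 0.51, adjusted p = 0.0865) in OA animals. In serum animals all 10 genes had this sign, and in OA animals 6 of the 10. Among 11 genes that glucocorticoids repress, all kept, 6 were higher after OA at 24 h and 5 lower, with a median difference of 0.07 against -0.04 over all genes. At 3 h 8 of the 11 were higher and 3 lower, with a median of 0.98 against 0.09. Il12b and Il6 had an adjusted p below 0.05 by limma at 24 h (0.0263 and 0.0431) with lower signals after OA. The Il12b probe was not well above background on any of these 5 arrays, so no fold is given. That of Il6 was well above background on 1 of 2 serum arrays and on none of the 3 OA arrays. Its group mean was 3.77-fold lower. Tnf was lower at 3 and 4 h than at 1 and 1.5 h (-1.24, SE 0.23, adjusted p = 0.0205).

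Immediate early genes, which answer many stimuli besides the hormone, were higher after OA in 9 of 10 at 1 h and 10 of 10 at 1.5 h. Their median differences were 0.88 and 0.73. At 4 h 8 of 10 were lower. At 24 h all 10 were higher, with a median of 1.09, and 3 of 10 were higher by the test. These were Nr4a1 (2.94, adjusted p = 0.0127), Atf3 (5.21-fold between group means, with neither serum array well above background, adjusted p = 0.0131) and Jun (1.19, adjusted p = 0.0438). Of 14 clock genes 10 were kept. Nr1d1, a repressor whose level oscillates over the day, changed with time (F test, adjusted p = 0.0129), with a probe that was often not well above background. Its serum means were -3.79, -2.12, -1.74 and -2.54 over the first hours, then -4.29 and -3.14 on the next day, and no next-day serum array was well above background. At 24 h Cry2 and Tef were higher after OA (1.37 and 1.23, adjusted p = 0.0278 and 0.0333). Over these lists, as over the 10 genes, the calls at 24 h stand against 29.9% of all genes and rest on the same pair of serum arrays.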

How the data were processed

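RNA of PBMC from 30 mice was hybridised to Agilent 1-colour mouse arrays. Per the file headers, the deposited intensity values are processed signals of Feature Extraction 10.5.1.1, corrected for background within each array by the authors' scanner software, and coordinates are mm9. The authors also deposited processed values for each array, on a log2 scale by their match to the scanner values (column medians of 5.35 to 5.36, each column closest to its own array). They served only as an alternative, and how they were scaled and centred is not stated in the labels or headers.

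Here control spots (3671) and outlier spots (91 to 1408 per array) were left out. The log2 signal minus the array's 75th percentile (40.2 to 152 in signal units) was averaged per probe. Probes well above background on at least 3 of 30 arrays were kept (35979), and the brightest probe stood for a gene. No spot was saturated and no 2 files were identical. A model with 12 groups was fitted with limma 3.58.1 in R 4.3.3 (18 residual degrees of freedom, median residual SD 0.59), two-sided, with Benjamini-Hochberg adjustment over all genes and a threshold of 0.05. The fitting code was tested on simulated data of 24252 genes with known differences between OA and serum at 24 h. It called 42% of the differences of -2 and 54% of those of 2. For differences of -3 and 3 it called 60% and 74%. Smaller differences were not simulated. Probes for long intergenic RNAs were found by their description text, because the gene name column planned for this does not mark them. The number of arrays limits the precision.

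Each of the 10 genes was named throughout. Of the other lists (receptor and co-factors, other induced, repressed, immediate early, clock), those called and the 2 with the lowest p were eligible, and Nr3c1 always. Members and lists were chosen with earlier results of these data known. Alternatives were 13 planned choices of scaling, filter, probe, slide, replicate block, intergenic signal and arrays, each of 30 arrays left out in turn, and 5 choices without the 4 h groups that were added after the data were seen. Markers of 8 cell types were described and not tested as causes.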

Additional observations from a re-analysis of the deposited data

How the results depend on the processing

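At 24 h, 4 of the 10 genes passed in the fit reported. For most alternatives below the share of all genes called is not given, so the counts show only whether calls held. The count was 5 with normexp background correction, of which Sgk1 alone was among the 4, and 3 with the authors' values or the slide as a random block, both without Sgk1 (adjusted p = 0.0505 and 0.0729). It was 1 with scaling to the median of always-detected probes, 2 with the replicate block, and 0 with the slide as a fixed block, without slide 5, with the intergenic signal as a covariate, or without the 3 least correlated arrays. It was also 0 in 3 alternatives added after the data were seen, each without the 4 h groups and with the slide block, the intergenic signal or serum 24 h replicate 1 left out. With each array left out in turn, 0 passed without OA 24 h replicate 1. Leaving out either serum 24 h array left 1 serum array there, with Ddit4 at -0.02 without replicate 1 and 3.06 without replicate 2. Sgk1 at 24 h turned to -0.0855 with the intergenic signal, and to -0.0795 with the 4 h groups left out as well. For the mean of the times, 0 passed and 7 without the 4 h groups. The causes were not tested.

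For time, 0 passed in the fit reported. In serum animals 1 (Per1) passed on the next day with always-detected scaling, quantile normalization and the authors' values, and 0 to 3 with single arrays left out, the 3 without serum 24 h replicate 2. In OA animals Fkbp5 (1 gene) passed with those same 3 scalings, the intergenic signal, or without the 3 least correlated arrays. Per1 (1 gene) passed there without the 4 h groups combined with the intergenic signal or with serum 24 h replicate 1 left out. At 3 and 4 h against 1 and 1.5 h Fkbp5 (1 gene) passed with the 3 scalings and the intergenic signal. In the F test for time the count was 4 (Fkbp5, Per1, Zbtb16, Errfi1) with always-detected scaling, 2 with quantile normalization, the authors' values or the intergenic signal, and 1 (Per1) with the filter on a whole group, the mean of probes or the slide as a random block. Without the 4 h groups it was 1, also with the slide block or serum 24 h replicate 1 left out, and 2 with the intergenic signal. Single arrays left out gave 0 to 4, and 0 to 3 for the F test of the OA effect and 0 to 1 for its next-day contrast, the highest of each without serum 24 h replicate 2.

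Replicate numbers were not taken to pair the samples. Of 12 same-numbered pairs of arrays, 4 had deviations correlated above 0.1, which with so few arrays per group cannot settle whether they were paired. With the replicate block, genes called at 24 h fell from 7559 to 5197, and Zbtb16 and Sgk1 were no longer called (adjusted p = 0.0581 and 0.0703), while it changed no other call of the 10 genes. Always-detected scaling shifted the median of all genes at 24 h to -0.59, and relative to it the members' median was 1.36, as in the fit reported. It lowered the share of higher calls among all genes at 24 h from 43.8% to 19.2%, and quantile normalization raised it to 58.2%. Fkbp5 at 24 h was below 0 under both. Serum 24 h arrays at or under background limit Klf9 and Errfi1 there.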
